A study of Homo sapiens with 16 samples.

Results

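The genes described here are 10 of the 57820 in the deposited table, taken by their symbols: the variant histone genes H2AFX, H2AFZ, H2AFV, H2AFY, H3F3A and H3F3B, and SLBP, LSM11, CASP8AP2 and NPAT, which make or process the mRNA of the replication histones. All 10 were in the table and all 10 had at least 1 RPKM (reads scaled by the length of the gene model and the size of the library) in each of the 16 libraries, so none was lost to the filter on low values. The cells were SK-OV-3, an established human ovarian carcinoma line. Control cells expressed the shRNA shScramble. Knockdown cells expressed 1 of 3 shPRMT1 hairpins (#1, #3 and #5), which target the mRNA of PRMT1, the enzyme that makes most asymmetric dimethylarginine in cells. Each of these 4 populations was untreated or had received the DNA-crosslinking drug cisplatin, 20 µM for 24 h, and the 8 groups held 2 biological replicates each. The control carried an shRNA too, and whether a knockdown population was a clone or a pool is not given in the sources used here.

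Most histone genes are replication histones: they are switched on in S phase, and their mRNAs end in a conserved stem-loop instead of a poly(A) tail. NPAT turns on their transcription in the histone locus body, where CASP8AP2 (also called FLASH) and LSM11, a subunit of the U7 small nuclear ribonucleoprotein, help to cleave the transcript. SLBP binds the stem-loop and stays with the mRNA through translation and decay. Variant histone genes are transcribed outside S phase as well, from polyadenylated mRNAs. H2AFX encodes H2A.X, whose phosphorylated form marks DNA breaks. H2AFZ and H2AFV encode the nearly identical H2A.Z.1 and H2A.Z.2, H2AFY encodes macroH2A1, and H3F3A and H3F3B encode the same protein, H3.3.

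H2AFX stands between the classes, because its mRNA is known both as a stem-loop form and as a polyadenylated form. The stem-loop pattern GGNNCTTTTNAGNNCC (N is any base), searched on the sense strand of GENCODE v29 transcripts, was found in 2 of 2 H2AFX transcripts and in none of those of H2AFZ (6), H2AFV (8), H2AFY (20), H3F3A (4) and H3F3B (13). It was present in 34 of 90 replication histone genes and in 80 of all 58676 genes (0.136%). A gene without a match lacks only this fixed pattern in its annotated transcripts, and may still carry a stem-loop. The H2AFX site is shown beside those of 2 replication histone genes that rose with PRMT1 knockdown in these libraries, with the 16 bases of the pattern in capitals. Each is written 5′ to 3′ as DNA.
H2AFX: ccacaaaGGCCCTTTTAAGGGCCaccaccg
HIST1H4H: aaccaaaGGCCCTTTTCAGGGCCgcccact
HIST1H2BG: actcaaaGGCTCTTTTCAGAGCCactcaag
In the 1614-base H2AFX transcript the site lies at positions 555 to 570 and is followed by 1044 further bases. The gene model behind the H2AFX values is also 1614 bases long, so it covers both forms. An mRNA that ends at the stem-loop has no tail to be captured by, and the libraries were made with a kit that selects poly(A) RNA. The share of H2AFX mRNA in either form was not measured.

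The 250 bases before the RefSeq start site (GRCh38.p14) are given for the 4 histone mRNA factors and H2AFV, the genes with the clearest changes. Each is written 5′ to 3′ along the gene's own strand. Capitals mark matches, on either strand, to the E2F-type words TTTCCCGC, TTTCGCGC, TTTGCCGC and TTTGGCGC, to CCAAT and to TATAAA.
SLBP chr4:1712320-1712569 (- strand): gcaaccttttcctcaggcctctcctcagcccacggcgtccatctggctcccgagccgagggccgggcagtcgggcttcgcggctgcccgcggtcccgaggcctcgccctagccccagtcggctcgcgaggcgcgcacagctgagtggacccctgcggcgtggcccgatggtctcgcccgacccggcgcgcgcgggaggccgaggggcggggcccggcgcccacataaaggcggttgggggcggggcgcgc
LSM11 chr5:157743462-157743711 (+ strand): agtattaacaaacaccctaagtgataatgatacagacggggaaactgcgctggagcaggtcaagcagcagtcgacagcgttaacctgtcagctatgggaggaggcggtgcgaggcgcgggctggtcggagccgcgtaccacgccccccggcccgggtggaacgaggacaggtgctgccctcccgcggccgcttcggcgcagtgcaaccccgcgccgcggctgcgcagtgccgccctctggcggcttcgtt
CASP8AP2 chr6:89829630-89829879 (+ strand): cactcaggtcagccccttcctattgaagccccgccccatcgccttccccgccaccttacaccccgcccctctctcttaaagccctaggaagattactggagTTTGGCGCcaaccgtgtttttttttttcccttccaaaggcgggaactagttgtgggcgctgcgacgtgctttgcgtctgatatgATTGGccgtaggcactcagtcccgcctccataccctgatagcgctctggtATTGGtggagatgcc
NPAT chr11:108222639-108222888 (- strand): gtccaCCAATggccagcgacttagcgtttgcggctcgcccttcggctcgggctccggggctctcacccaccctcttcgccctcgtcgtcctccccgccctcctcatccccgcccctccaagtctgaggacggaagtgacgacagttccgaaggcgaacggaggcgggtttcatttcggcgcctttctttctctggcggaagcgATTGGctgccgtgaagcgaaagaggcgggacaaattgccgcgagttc
H2AFV chr7:44848088-44848337 (- strand): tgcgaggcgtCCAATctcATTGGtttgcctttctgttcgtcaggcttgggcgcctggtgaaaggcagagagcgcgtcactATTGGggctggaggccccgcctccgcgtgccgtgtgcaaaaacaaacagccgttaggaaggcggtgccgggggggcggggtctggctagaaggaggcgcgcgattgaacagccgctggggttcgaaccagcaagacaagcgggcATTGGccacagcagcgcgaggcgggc
RefSeq entries were matched for all 10 genes. An E2F-type word was present in CASP8AP2 alone among the 10 (H2AFY and H3F3A have several start sites, and every window was searched), against 2.79% of all 35116 promoter windows of this length. CCAAT stood 4 times in H2AFX, H2AFV and H3F3B, 3 times in H2AFZ and 2 times in CASP8AP2 and NPAT. It stood 2 times in 1 of 2 H2AFY windows and 1 time in 3 of 4 H3F3A windows, and 32.01% of all windows held at least 1. SLBP and LSM11 held no match to any of these words. TATAAA was found in H2AFX, H2AFZ and H3F3B, against 10.72% of all windows. No match says only that these letters are missing from the window.

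Library totals, recovered from the RPKM steps as whole reads, ran from 12289300 to 16039735. PRMT1 measured 19.3 RPKM or more in untreated shScramble cells and averaged 6.61 ± 1.84 RPKM (SD, n = 6) in untreated shPRMT1 cells, which on the log2(RPKM + 1) scale is -1.59 (SE 0.21, limma adjusted p = 0.00179). Of 10 genes typical of carcinoma epithelium and SK-OV-3, 9 averaged at least 1 RPKM, as did 4 of 6 fibroblast genes (COL1A1, COL1A2, COL3A1 and LUM) and none of the leukocyte or endothelial genes. The summed fibroblast genes ran from 50.2 to 79.1 RPKM in untreated and from 18.7 to 47.9 RPKM in cisplatin libraries, and their part in the results was not tested. Among genes above a minimum number of reads, the highest value in a library ran from 1.751 to 1.841 reads per base of the gene model. Genes with fewer reads were not examined for this. SLBP reached 0.866 and H2AFV 0.656 reads per base. How duplicate reads were treated is not given in the sources used here, and its part in the levels was not tested.

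Levels were compared per kilobase of gene model. The median over 16 libraries was highest for SLBP (51.4 RPKM), followed by H2AFZ (38.5), H3F3B (30.4), H2AFV (30.2), H2AFX (22.0), CASP8AP2 (19.0), NPAT (16.8), H2AFY (9.85), LSM11 (8.74) and H3F3A (6.65). In all 9 neighbouring pairs of this order the ranges over libraries overlapped. The H3F3A level is uncertain. How reads shared with its pseudogenes were counted is not given in the sources used here, and H3F3AP6 alone was listed at a median of 9.17 RPKM, above H3F3A itself. The H2AFY model, at 17730 bases, is the longest of the 10.

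All 4 histone mRNA factors rose with cisplatin, in control cells and in knockdown cells. In shScramble cells LSM11 rose 1.92-fold, NPAT 1.82-fold, CASP8AP2 1.78-fold and SLBP 1.26-fold, as ratios of mean RPKM. Each was higher in all 8 cisplatin libraries than in any of the 8 untreated libraries. Non-overlap in that direction was seen for 8.3% of the 18149 genes tested. With H2AFV, which fell, 4 of the 10 genes were called higher and 1 lower in shScramble cells (limma, adjusted p under 0.05), where 15.5% of all genes tested were called higher and 14.7% lower. In shPRMT1 cells 5 of the 10 rose, the 4 factors and H2AFZ, and none was called lower (0 at an unadjusted p under 0.05), against 30.4% and 23.6% of all genes. With the replicate number as a block, H3F3A (0.12, adjusted p = 0.0462) and H3F3B (0.08, adjusted p = 0.0223) were also called higher and H2AFV lower in shPRMT1 cells. That block made more calls over the whole table as well, at 22.8% higher and 21.3% lower in shScramble cells and 36.7% and 29% in shPRMT1 cells. None of the variant histone genes rose in shScramble cells. In bulk RNA, a change in every cell and a change in the share of cells at a given cycle stage cannot be told apart.

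**Figure D1:**
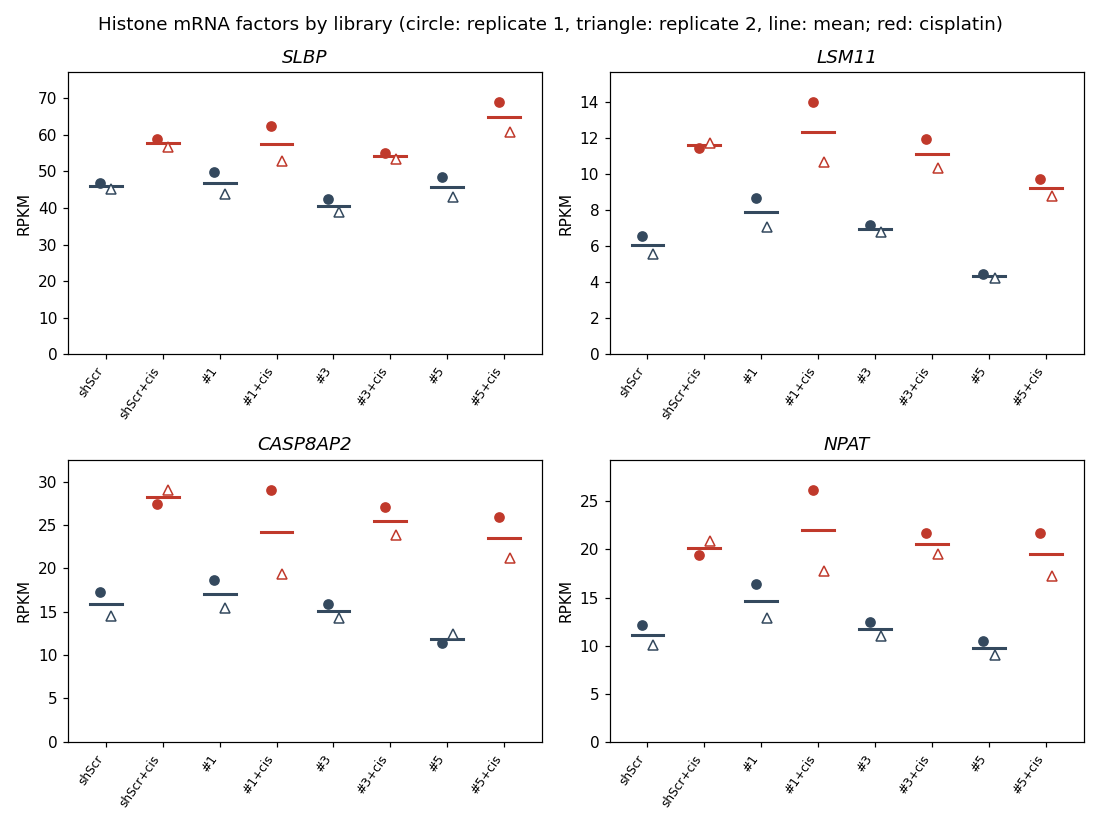
RPKM of the 4 histone mRNA factors in each library, by group (shScr is shScramble, # numbers are the shRNAs against PRMT1, cis is cisplatin). Circles are replicate 1, open triangles replicate 2 and lines the mean of both; every red cisplatin point lies above every dark untreated point of the same gene.

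SLBP (ENSG00000163950.8, GRCh37 chr4:1694527-1714282, minus strand) is the stem-loop binding protein. It measured 46.8 and 45.3 RPKM in untreated shScramble cells (replicates 1 and 2) and 59.0 and 56.7 RPKM under cisplatin. With shRNA #1 it went from 49.9 and 43.9 to 62.5 and 52.8 RPKM, with #3 from 42.4 and 38.9 to 55.1 and 53.5 RPKM, and with #5 from 48.5 and 43.0 to 69.0 and 60.7 RPKM. The cisplatin level was above the untreated level of the same shRNA and replicate in every case, and no other gene of the 10 was as abundant. On the log2(RPKM + 1) scale the difference was 0.32 (SE 0.10, adjusted p = 0.0293) in shScramble and 0.40 (SE 0.06, adjusted p = 0.000132) in shPRMT1 cells. The shScramble call was lost without any 1 of its 4 libraries, with adjusted p = 0.136 and 0.0834 without cisplatin replicate 1 or 2 and 0.0812 and 0.132 without untreated replicate 1 or 2.

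LSM11 (ENSG00000155858.5, chr5:157170703-157187717, plus strand), the U7-specific LSM protein that recruits CASP8AP2, had the lowest median level of the 4 and, in shScramble cells, the largest ratio. It measured 6.56 and 5.56 RPKM untreated and 11.5 and 11.7 RPKM under cisplatin in shScramble cells. The corresponding pairs were 8.69 and 7.07 against 14.02 and 10.66 RPKM with shRNA #1, 7.20 and 6.77 against 11.95 and 10.34 RPKM with #3, and 4.44 and 4.25 against 9.71 and 8.79 RPKM with #5. Levels with #5 were the lowest in both conditions. The cisplatin difference was 0.84 (SE 0.14, adjusted p = 0.00104) in shScramble and 0.71 (SE 0.08, adjusted p = 2.54e-05) in shPRMT1 cells, and it was called with each shRNA alone, at 0.58, 0.60 and 0.94 with #1, #3 and #5. In these single comparisons 15.8%, 19.1% and 19.3% of all genes were called higher. Untreated LSM11 differed from shScramble by -0.40 with #5 (adjusted p = 0.0927, or 0.00992 with the replicate number as a block) and by 0.33 with #1 (adjusted p = 0.184, or 0.0279 with the block), opposite signs that average with #3 to 0.04. Under cisplatin #5 gave -0.30 (adjusted p = 0.155, or 0.0262 with the block).

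CASP8AP2 (ENSG00000118412.8, chr6:90539613-90584155, plus strand) encodes FLASH, which bridges LSM11 to the cleavage complex. In shScramble cells it went from 17.3 and 14.5 to 27.38 and 29.04 RPKM. With shRNA #1 it went from 18.7 and 15.4 to 29.1 and 19.4 RPKM, with #3 from 15.9 and 14.3 to 27.1 and 23.9 RPKM, and with #5 from 11.4 and 12.4 to 25.9 and 21.1 RPKM. The gap between replicates was widest with #1 under cisplatin, where replicate 2 stood at 0.67 of replicate 1. The cisplatin difference was 0.80 (SE 0.18, adjusted p = 0.00589) in shScramble and 0.70 (SE 0.10, adjusted p = 0.000157) in shPRMT1 cells. It was called with #3 (0.72) and #5 (0.92), while #1 gave 0.46 (adjusted p = 0.0744, or 0.0157 with the block). The shScramble call was lost without untreated replicate 2 (0.68, adjusted p = 0.0541).

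NPAT (ENSG00000149308.12, chr11:108027942-108093369, minus strand), the cyclin E-CDK2 substrate that activates histone genes, went from 12.2 and 10.1 to 19.5 and 20.8 RPKM in shScramble cells. With shRNA #1 the values were 16.4 and 12.8 untreated against 26.2 and 17.8 RPKM, with #3 12.4 and 11.0 against 21.7 and 19.5 RPKM, and with #5 10.47 and 8.996 against 21.7 and 17.3 RPKM. The highest untreated value (#1) remained below the lowest cisplatin value (#5). The difference was 0.81 (SE 0.19, adjusted p = 0.00714) in shScramble and 0.75 (SE 0.11, adjusted p = 0.000145) in shPRMT1 cells, and 0.54, 0.77 and 0.93 with #1, #3 and #5, all called. Without untreated replicate 2 or cisplatin replicate 2 the shScramble call was lost (adjusted p = 0.0630 and 0.0517).

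NPAT lies head to head with ATM, the kinase that phosphorylates H2A.X at DNA breaks, and the gene models overlap by 159 bases on opposite strands. Reads inside the overlap cannot be assigned to either gene, because the library kit keeps no strand information. ATM spans 146.6 kb against 65.4 kb for NPAT, and it was not called in either direction with cisplatin. It averaged 7.90 ± 0.72 RPKM untreated and 6.60 ± 0.08 RPKM under cisplatin in shScramble cells (SD, n = 2), a difference of -0.22 (adjusted p = 0.396), and -0.22 in shPRMT1 cells (adjusted p = 0.0962). The NPAT to ATM ratio of RPKM was 1.45 and 1.36 in untreated and 2.98 and 3.13 in cisplatin-treated shScramble libraries. With the 3 shRNAs the group means were 1.34 to 1.72 untreated and 2.91 to 3.12 under cisplatin, so the neighbours moved apart in each of the 4 populations.

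Gene span moved with the cisplatin difference over the whole table. Genes spanning more than 100 kb had a median log2 difference of -0.26 in shScramble and -0.49 in shPRMT1 cells, and 42.1% and 66.7% of them were called lower. None of the 10 genes spans that much. In the 15 to 30 kb class, which holds SLBP, LSM11 and H2AFV, 22% of genes were called higher in shScramble cells with a median of 0.06. In the 50 to 100 kb class, which holds NPAT and H2AFY, 17.7% were called higher with a median near 0 (-0.002). The part of gene span in the results was not tested.

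The 4 factors also varied together across libraries. Pearson's r over the 16 libraries on the log2(RPKM + 1) scale was 0.95 to 0.96 between LSM11, CASP8AP2 and NPAT and 0.72 to 0.86 between SLBP and these. The libraries share their 8 cisplatin and 8 untreated states, so these values are a description. Among 10071 genes averaging at least 5 RPKM, those most like LSM11 were CENPL (r = 0.991), FANCB (0.989) and RBBP5 (0.986). Those most like CASP8AP2 were HPS5 (0.981), RIF1 (0.978) and FIGNL1 (0.974), and those most like NPAT were WDR47 (0.985), NOC3L (0.984) and MYSM1 (0.983).

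The other genes of the pathway did not all move with the 4 factors. Among 31 further genes of histone mRNA 3′ processing and turnover, all tested, 2 rose and 1 fell with cisplatin in shScramble cells (median 0.08, against -0.01 for all genes), and 14 rose and 3 fell in shPRMT1 cells (median 0.16 against 0.04). The shares of all genes called higher and lower were 15.5% and 14.7% in shScramble cells, and 30.4% and 23.6% in shPRMT1 cells. With the block the counts were 10 and 3 in shScramble cells and 21 and 4 in shPRMT1 cells, against 22.8% and 21.3%, then 36.7% and 29%, of all genes. ZNF473, a U7-associated zinc finger protein, went from 8.38 ± 0.72 to 21.3 ± 0.31 RPKM (SD, n = 2) in shScramble cells, a difference of 1.25 (SE 0.11, adjusted p = 1.01e-05). CTIF, a cap-binding complex partner that also acts in SLBP-dependent translation, went the other way, from 8.33 ± 1.09 to 0.68 ± 0.11 RPKM, a difference of -2.47 (SE 0.23, adjusted p = 1.98e-05). In shPRMT1 cells the differences were 0.96 for ZNF473 and -2.63 for CTIF, both called.

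Of 12 genes that act with NPAT in the histone locus body or in histone gene transcription, 6 rose and 2 fell with cisplatin in shScramble cells. In shPRMT1 cells 6 rose and 4 fell. Of all genes 15.5% rose and 14.7% fell in shScramble cells, and 30.4% and 23.6% in shPRMT1 cells. The cyclins that drive CDK2 rose: CCNE1 by 1.55 (adjusted p = 6.24e-09) and CCNE2 by 1.74 (adjusted p = 1.47e-07) in shPRMT1 cells. CDC25A, the phosphatase that activates CDK2, rose by 1.66 (adjusted p = 8.62e-07) in shScramble cells. There POU2F1, the octamer-binding activator of H2B genes, fell by 0.83 (adjusted p = 0.000472), and YY1 fell by 0.39 (adjusted p = 0.00275). A reference list of 15 S phase genes had 7 risen and 0 fallen members with cisplatin in shScramble cells. In shPRMT1 cells it had 11 and 0, beside the same shares of all genes. With the block the counts were 9 and 0, and 13 and 1, against 22.8% and 21.3%, then 36.7% and 29%, of all genes. With knockdown 6 of the 15 fell in untreated cells and 4 under cisplatin, and none rose, where 3.83% and 9.36% of all genes fell. With the block 10 and 7 fell, against 9.64% and 16.5% of all genes. With cisplatin CDC6, which loads the replicative helicase, rose by 1.03 in shScramble and by 1.15 in shPRMT1 cells. With knockdown CDC6 differed by -0.33 untreated (adjusted p = 0.0208) and by -0.21 under cisplatin (adjusted p = 0.0675). The part of S phase genes in the rise of the 4 factors was not tested.

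Of the 6 variant histone genes chosen, H2AFV had the largest called difference. It fell with PRMT1 knockdown and, in shScramble cells, with cisplatin. In untreated cells the knockdown mean was 0.66 of the shScramble mean. H2AFV (ENSG00000105968.14, chr7:44866390-44887682, minus strand) measured 44.7 and 42.1 RPKM in untreated shScramble cells, 33.3 and 30.3 RPKM with shRNA #1, 24.1 and 22.9 RPKM with #3 and 31.6 and 28.2 RPKM with #5. Under cisplatin it measured 36.3 and 31.9 RPKM in shScramble cells, 31.05 and 27.96 RPKM with #1, 22.0 and 20.0 RPKM with #3 and 30.1 and 25.6 RPKM with #5. All shPRMT1 libraries lay below both shScramble libraries of the same treatment, and #3 was lowest. Non-overlap in that direction was seen for 5.92% of genes untreated and 11.2% under cisplatin.

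**Figure D2:**
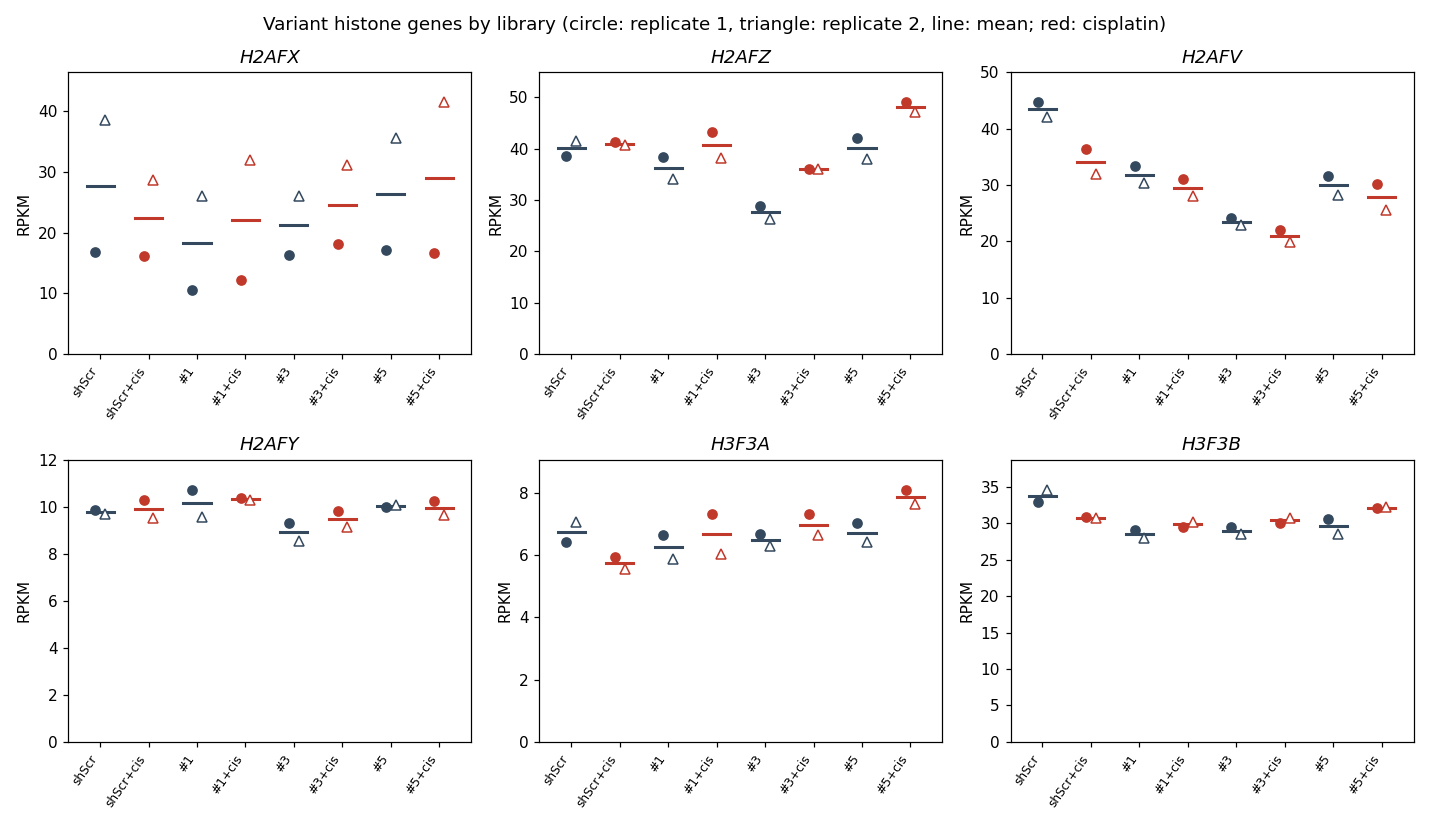
RPKM of the 6 variant histone genes in each library, by group, drawn as for the histone mRNA factors, with an axis from 0 for each gene. H2AFV is highest in untreated shScramble cells, whereas for H2AFX the open triangles of replicate 2 lie above the circles of replicate 1 in all 8 groups.

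Untreated, H2AFV was lower in shPRMT1 cells by 0.61 on the log2 scale (-0.61, SE 0.08, adjusted p = 0.00202), and with each shRNA alone: -0.44 with #1 (adjusted p = 0.0267), -0.86 with #3 (adjusted p = 0.00075) and -0.52 with #5 (adjusted p = 0.00812). In these single comparisons 4.66%, 3.93% and 6.51% of all genes were called lower. Under cisplatin the difference was -0.39 (SE 0.08, adjusted p = 0.0094). Of the 3 shRNAs, #3 alone was called there (-0.68, adjusted p = 0.00221), against -0.20 with #1 (adjusted p = 0.26) and -0.28 with #5 (adjusted p = 0.0732); with the block all 3 were called. Without the block, the shares of all genes called lower were 5.92% with #1, 6.84% with #3 and 10.4% with #5. The matching shares with the block are not given here. In the averaged comparison under cisplatin, 16.5% of all genes were called lower with the block and 9.36% without it. Without #3 the averaged difference under cisplatin was -0.24 (adjusted p = 0.131), and without cisplatin shScramble replicate 1 it was -0.30 (adjusted p = 0.151).

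With cisplatin, H2AFV fell in shScramble cells by 0.34 (-0.34, SE 0.10, adjusted p = 0.0293; 0.000181 with the block). This call was lost without cisplatin replicate 2 (adjusted p = 0.205), without untreated replicate 1 (adjusted p = 0.145) and without untreated replicate 2 (adjusted p = 0.0693). In shPRMT1 cells the difference was -0.12 (SE 0.06, adjusted p = 0.11; 0.0022 with the block). The genes most like H2AFV across libraries were PAFAH1B1 (r = 0.973), KIF4A (0.925) and SPIN1 (0.921).

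Its paralogue H2AFZ followed a different course. H2AFZ (ENSG00000164032.7, chr4:100869243-100871545, minus strand) measured 38.6 and 41.4 RPKM untreated and 41.3 and 40.7 RPKM under cisplatin in shScramble cells. With shRNA #1 it went from 38.42 and 34.03 to 43.2 and 38.3 RPKM, with #3 from 28.9 and 26.3 to 36.1 and 36.1 RPKM, and with #5 from 42.2 and 38.0 to 49.1 and 47.1 RPKM. H2AFZ rose with cisplatin in shPRMT1 cells by 0.27 (SE 0.05, adjusted p = 0.000768), and its difference in shScramble cells was 0.03 (SE 0.08, adjusted p = 0.822). The difference between these responses was 0.23 (SE 0.10, adjusted p = 0.218). Untreated, #3 was lower by 0.52 (-0.52, adjusted p = 0.00418), while #5 was at 0 (SE 0.08), and the average of the 3 shRNAs was -0.22 (adjusted p = 0.0776; 0.0154 with the block). Under cisplatin #5 was higher than shScramble by 0.23 (adjusted p = 0.0797; 0.0202 with the block).

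The balance of the H2A.Z genes shifted toward H2AFZ. The ratio of H2AFV to H2AFZ RPKM was 1.16 and 1.01 in untreated shScramble libraries and 0.88 and 0.79 under cisplatin. With the shRNAs, group means were 0.88 (#1), 0.85 (#3) and 0.75 (#5) untreated, and 0.73, 0.58 and 0.58 under cisplatin. The ratio was lower under cisplatin in each population. The 5 genes named as H2AFZ pseudogenes were listed at medians of at most 2.82 RPKM, and reads shared with them cannot be placed with certainty.

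The H3.3 genes moved little. H3F3B (ENSG00000132475.4, chr17:73772515-73781974, minus strand) measured 32.9 and 34.6 RPKM in untreated shScramble cells and between 28.1 and 30.7 RPKM in the 6 untreated shPRMT1 libraries, all lower. It was lower by 0.21 (-0.21, SE 0.05, adjusted p = 0.0206) in untreated knockdown cells. That call was lost without shScramble replicate 1 (adjusted p = 0.0745) or replicate 2 (adjusted p = 0.23), or without replicate 2 of shRNA #3 (adjusted p = 0.0536). With #1, #3 and #5 alone the differences were -0.23, -0.21 and -0.19, with adjusted p = 0.0316, 0.046 and 0.0574 (0.0175 for #5 with the block). Its gene model overlaps UNK by 1294 bases on the other strand, and UNK averaged far less, with a median of 9.48 RPKM.

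H2AFV and H3F3B were the 2 of 10 genes called lower in untreated knockdown cells, where 3.83% of all genes were called lower. None was called higher (4.41% of all genes; 0 at an unadjusted p under 0.05, and 0 with the block). Under cisplatin H2AFV was called lower (1 of 10, against 9.36%) and none was called higher (against 10.4%), with 1 at an unadjusted p under 0.05 and 1 with the block, in both cases H3F3A. With the block 10.7% of all genes were called higher and 9.64% lower in untreated knockdown cells, and 18.1% and 16.5% under cisplatin.

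H3F3A (ENSG00000163041.5, chr1:226249552-226259702, plus strand) measured 6.41 and 7.07 RPKM untreated and 5.93 and 5.55 RPKM under cisplatin in shScramble cells. In shPRMT1 cells it ran from 5.89 to 7.02 RPKM untreated and from 6.05 to 8.10 RPKM under cisplatin. All 6 cisplatin shPRMT1 libraries lay above both shScramble ones, a non-overlap seen for 14.9% of genes. The difference was 0.27 (SE 0.09, adjusted p = 0.0548; 0.0115 with the block), and it was called with #5 alone (0.40, adjusted p = 0.0262), where 12.1% of all genes were called higher.

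H2AFY (ENSG00000113648.12, chr5:134669590-134735604, minus strand), the macroH2A1 gene, had no called difference. It ranged from 8.56 to 10.7 RPKM over all 16 libraries, and its differences in the 5 comparisons lay between -0.01 and 0.03. The largest standard error of these was 0.10.

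**Figure D3:**
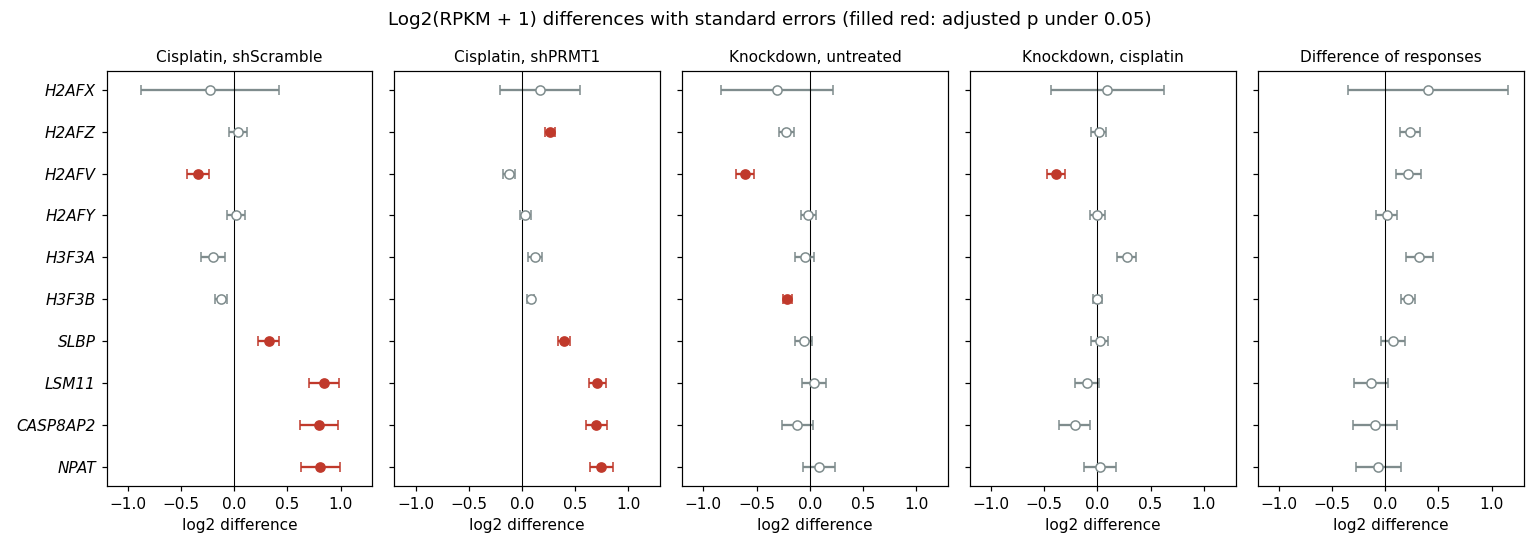
Log2(RPKM + 1) differences of the 10 genes in the 5 comparisons, with bars of 1 standard error; filled red points have an adjusted p under 0.05. The 4 histone mRNA factors are called in both cisplatin panels, and H2AFV in 3 of the 5 panels.

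No gene of the 10 was called for a different cisplatin response in shPRMT1 than in shScramble cells, where 2.08% of all genes were called higher and 3.11% lower. At an unadjusted p under 0.05 there were 3 (H2AFZ, H3F3A and H3F3B), with limma-voom on the recovered reads 0, and with the block 2, namely H2AFV (0.22, adjusted p = 0.0243) and H3F3B (0.21, adjusted p = 0.0326), against 6.2% of all genes called higher and 7.78% lower with the block. For the 4 histone mRNA factors the difference between responses was 0.08 (SE 0.11) for SLBP, -0.13 (SE 0.16) for LSM11, -0.10 (SE 0.20) for CASP8AP2 and -0.06 (SE 0.22) for NPAT. Differences of this size relative to their errors cannot be told apart from 0, nor do they show that the responses are alike. With the block and 1 shRNA alone, knockdown gave 3 calls in the factors that the fit without it did not make, beside those of LSM11. NPAT was higher with #1 untreated (0.36, adjusted p = 0.0449). SLBP was lower with #3 untreated (-0.18, adjusted p = 0.0406) and higher with #5 under cisplatin (0.16, adjusted p = 0.0358). Shares of all genes called with the block and 1 shRNA are not given here. In the averaged knockdown comparisons the block called 10.7% of all genes higher and 9.64% lower untreated, and 18.1% and 16.5% under cisplatin.

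The largest differences in H2AFX lay between replicates. H2AFX (ENSG00000188486.3, chr11:118964564-118966177, minus strand) measured 16.8 RPKM in replicate 1 and 38.6 RPKM in replicate 2 of untreated shScramble cells, and 16.2 and 28.7 RPKM under cisplatin. The replicate pairs were 10.6 and 26.0 RPKM untreated and 12.1 and 31.9 RPKM under cisplatin with shRNA #1, 16.4 and 26.0 then 18.0 and 31.1 RPKM with #3, and 17.2 and 35.5 then 16.6 and 41.5 RPKM with #5. Replicate 2 was higher in 8 of 8 groups, by 1.59 to 2.63 times. The 8 replicate 1 libraries lay between 10.6 and 18.0 RPKM and the 8 replicate 2 libraries between 26.0 and 41.5 RPKM, without overlap. The share of all genes with such a non-overlap is not given here. By the looser rule, replicate 2 higher in 8 of 8 groups, it was 15.3% of all genes tested.

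**Figure D4:**
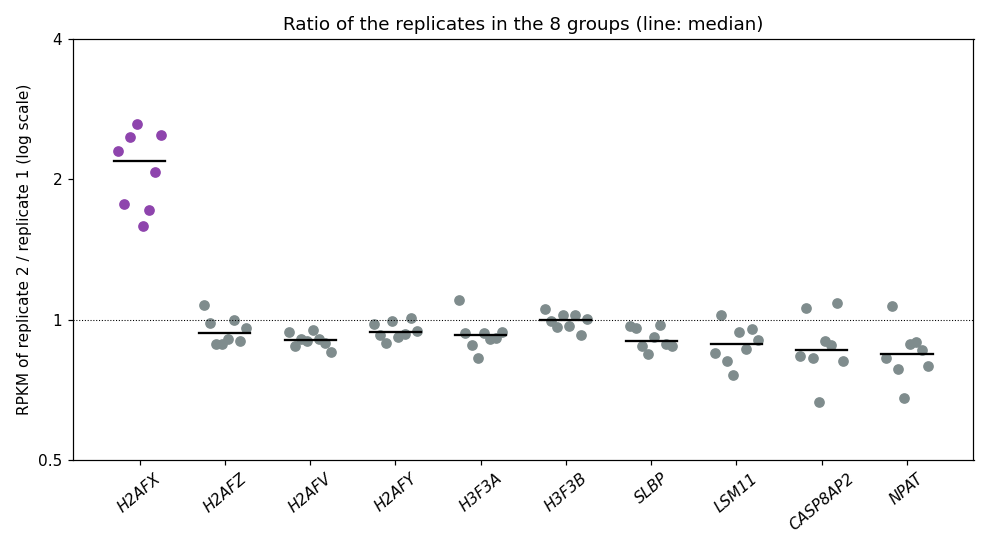
Ratio of replicate 2 to replicate 1 RPKM in each of the 8 groups, on a log axis, for the 10 genes; lines are medians. The 8 H2AFX ratios lie between 1.59 and 2.63, and those of the other 9 genes between 0.67 and 1.10.

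No H2AFX difference was called without a block. Cisplatin gave -0.23 (SE 0.65) in shScramble and 0.17 (SE 0.38) in shPRMT1 cells, and knockdown gave -0.31 (SE 0.53) untreated and 0.09 (SE 0.53) under cisplatin, all with adjusted p of 0.732 or more. With the replicate number as a block the standard errors fell to between 0.09 and 0.16, and none of these 4 was called (adjusted p from 0.126 to 0.626). Of the single shRNAs, #1 untreated was called lower than shScramble with the block (-0.59, adjusted p = 0.0244, against 0.674 without it). Taken within replicate 1, the cisplatin difference in shScramble cells was -0.05, and within replicate 2 it was -0.41. Within replicates the knockdown difference under cisplatin was -0.07 in replicate 1 and 0.26 in replicate 2, opposite in sign.

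GC content moved with the replicate difference across the table. It was taken from the longest GENCODE v29 transcript of each gene, for 17484 of 18149 genes (96.3%). The median log2 difference of replicate 2 from replicate 1 was -0.18 in the lowest of 10 equal GC classes and 0.53 in the highest, and Pearson's r across genes, which are not independent replicates, was 0.74. The H2AFX transcript has 66.4% GC, higher than 98.5% of genes, and its mean log2 difference was 1.02, which ranks 227 of 18149 by size. In its GC class, the highest, 1303 of 1749 genes were higher in replicate 2 in every group. SCAND1, MBD3 and SPPL2B, the genes most like it across libraries (r = 0.979, 0.976 and 0.978), lie at 62.5% to 65.0% GC. The other 9 genes lie between 37.1% and 50.7% GC and differed between replicates by -0.23 to -0.01. The further variant histone genes H2AFJ and H1FX also had replicate 2 higher in 8 of 8 groups. H2AFJ, at 42.6% GC, differed by 0.55, where its GC class had a median of -0.13. H1FX, at 68.6% GC, differed by 1.26. The part of GC content in the H2AFX result was not tested.

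**Figure D5:**
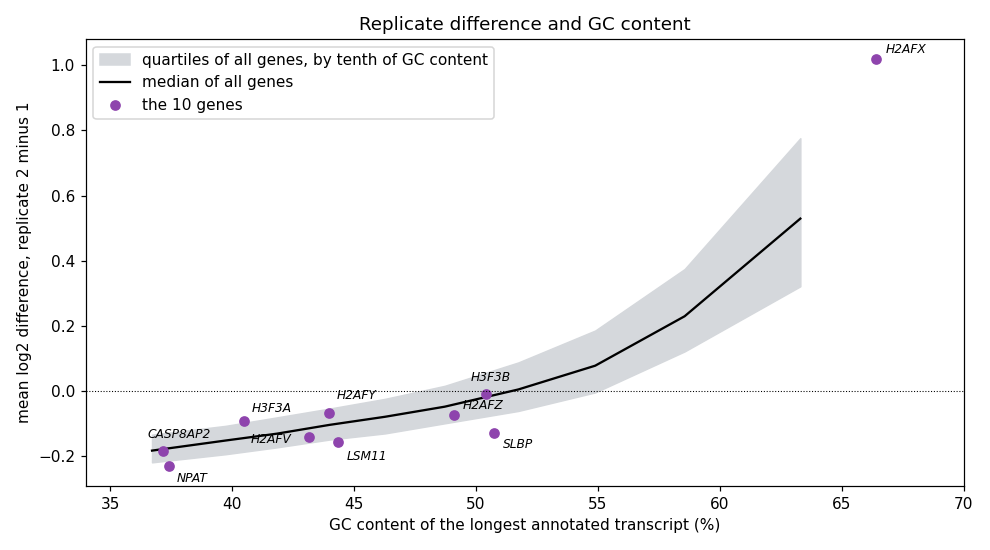
Mean log2 difference of replicate 2 minus replicate 1 over the 8 groups against GC content of the longest transcript (%); the line is the median and the band the quartiles of all genes in 10 equal GC classes. H2AFX, at 66.4% GC, lies at 1.02, above the band of the highest class, and the other 9 genes lie between -0.23 and -0.01.

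Of the 89 replication histone genes in the table, 53 were tested, and 6 of these were higher in replicate 2 in all 8 groups, as H2AFX was, against 15.3% of all genes. Their median log2 difference between replicates was 0.10, against -0.05 for all genes. With cisplatin 12 of the 53 rose and 1 fell in shScramble cells, where 15.5% and 14.7% of all genes did, and 36 rose and 1 fell in shPRMT1 cells, against 30.4% and 23.6%. With PRMT1 knockdown 12 rose and 0 fell untreated, against 4.41% and 3.83% of all genes, and 34 rose and 0 fell under cisplatin, against 10.4% and 9.36%. With the block the counts were 13 and 3, 41 and 1, 17 and 1, and 38 and 0 in the same order. The shares of all genes with the block were 22.8% and 21.3%, 36.7% and 29%, 10.7% and 9.64%, and 18.1% and 16.5%. The kit selects poly(A) RNA, and mRNAs that end at the stem-loop have no tail. These counts therefore do not describe replication histone mRNA as a whole. Of SLBP, LSM11, CASP8AP2 and NPAT, 0 of 4 were called for averaged knockdown in either condition, at an unadjusted p under 0.05 or with the block.

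Among 9 further variant histone genes, 6 were tested. H3F3C, an H3.3-like gene without introns, rose with cisplatin in shPRMT1 cells from 2.27 ± 0.60 to 6.79 ± 1.37 RPKM (SD, n = 6), a difference of 1.25 (SE 0.09, adjusted p = 6.45e-07). In shScramble cells it went from 2.44 ± 0.07 to 3.50 ± 0.83 RPKM (SD, n = 2), and the difference between the responses was 0.88 (SE 0.18, adjusted p = 0.0194). H3F3C resembles the H3.3 genes H3F3A and H3F3B and their pseudogenes in sequence, so its reads may be shared with them. CENPA, the centromeric H3, fell by 0.41 (adjusted p = 0.0357) in shScramble and by 0.54 (adjusted p = 0.000106) in shPRMT1 cells. H2AFY2, the macroH2A2 gene, fell by 0.52 (adjusted p = 4.94e-06) in shPRMT1 cells.

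Of 26 chaperones and exchangers of variant histones, 5 rose and 1 fell with cisplatin in shScramble cells, and 10 rose and 5 fell in shPRMT1 cells, against 15.5% and 14.7%, then 30.4% and 23.6%, of all genes. With the block the counts were 9 and 6 in shScramble cells and 12 and 8 in shPRMT1 cells. The shares of all genes with the block were 22.8% and 21.3%, then 36.7% and 29%. ASF1B, an H3-H4 chaperone of S phase, rose by 0.80 (adjusted p = 1.87e-05), and CHAF1B, a subunit of the replication-coupled assembly factor CAF-1, rose by 0.56 (adjusted p = 9.66e-05). CABIN1, a subunit of the HIRA complex that deposits H3.3, fell by 0.95 (adjusted p = 0.0326). INO80, the catalytic subunit of a remodeller linked to H2A.Z, was the 1 gene of the list called for the difference between responses (-0.40, adjusted p = 0.0324). Of 11 genes of H2A.X signalling, 3 rose and 1 fell in shScramble cells and 4 rose and 2 fell in shPRMT1 cells, beside the same shares of all genes. With the block the counts were 5 and 1, and 5 and 3, beside the same block shares. RNF8 and RNF168, the ubiquitin ligases that act after H2A.X phosphorylation, rose by 0.33 (adjusted p = 0.0135) and 0.31 (adjusted p = 0.0161) in shScramble cells. H2A.X phosphorylation itself was not measured here.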

How the data were processed

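RNA was sequenced from 16 libraries of SK-OV-3 cells, 2 in each of 8 groups. The authors deposited linear RPKM values for 57820 genes, 1 column per library, per the file headers. Per the labels' protocols, the kits were RNeasy Plus Micro for RNA and TruSeq RNA v2 for libraries, the second a kit that does not mark the strand. The submitters' processing notes name HISAT2, DESeq2, GRCh37 and mm9 without a role. No source used here names the counting program, the annotation release or the treatment of duplicates. Symbols and coordinates are those of the file (GRCh37), with starts shifted by 1 because the file counts them from 0.

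The RPKM values of all 40649 genes above 0 gave whole reads (100%, within 0.001 reads), with library totals of 12289300 to 16039735. A count of 3 reads in a model of 2 kb corresponds to 0.0935 to 0.122 RPKM, which covers counting error only. Replicates differed by a chi-square per degree of freedom of 5.79 or more in each group, above sampling noise. The labels call them biological replicates and do not say how cultures were kept apart, so p-values measure the spread between these samples.

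Tests used limma 3.58.1 in R 4.3.3 with a trended prior on log2(RPKM + 1), over the 18149 genes that reached 1 RPKM in 2 libraries, in 1 model of 8 group means. Changes of low values are understated on this scale. Benjamini-Hochberg adjustment ran over all 18149 genes, separately for each comparison, with a call threshold of 0.05. Effects in shPRMT1 cells are means over the 3 shRNAs, and comparisons that share a group share its libraries. For 1 shRNA alone, the share of all genes called with the replicate block is not given, so those calls have no background. On simulated data, 82% of 2-fold and 29% of 1.5-fold changes were recovered for cisplatin in shScramble cells, and 94% and 57% for knockdown in untreated cells (18149 genes, 100 changed at each size), with 5 and 10 unchanged genes called. The simulated reads were drawn independently, with the same spread for every gene. That spread was taken from genes with many reads, and the changed genes were drawn only from genes above a minimum of expected reads. Recovery may be lower for genes with few reads. Replicate differences shared by the groups were not simulated, so these rates may not hold for genes such as H2AFX.

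Replicate deviations correlated in all 28 pairs of groups (0.30 to 0.70), so replicate numbers were read as pairs in an alternative fit, the replicate block. The main fit holds no replicate term. Values with the block are printed for most calls and list counts it changes. The members and gene lists were chosen with earlier results of these data known. Named genes were the 10 members, PRMT1, up to 3 called genes per list, comparison and direction with the lowest adjusted p, the 3 genes most like each member called at 0.5 or more on the log2 scale, and pseudogenes and neighbours of members within 1 kb. The text gives a selection of these. SCAND1, SPPL2B and MBD3, set beside H2AFX, were added after its values were seen, as was the comparison with GC content. H1FX and H2AFJ are named in that comparison outside the rule for named genes. Alternatives were a pseudocount of 0.1, no filter, median-of-ratios scaling, voom on the recovered reads, the replicate block, a fit of the compared libraries alone, and leaving out each library or each shRNA. Promoters are from RefSeq (GRCh38.p14) and transcripts from GENCODE v29.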

Additional observations from a re-analysis of the deposited data

Results flagged for a closer look

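Among the genes described here, H3F3A was flagged by its signs. Cisplatin lowered it in both shScramble replicate pairs and raised it in all 6 shPRMT1 pairs. The difference between the responses was 0.32 on the log2 scale (adjusted p = 0.192 by limma, 0.0541 with the replicate block), so it was not called. H3F3B showed the same signs, lower in both shScramble pairs and higher in all 6 shPRMT1 pairs. The difference was 0.21 (adjusted p = 0.103, 0.0326 with the block). Within replicate 1 and replicate 2 it was 0.13 and 0.29 for H3F3B and 0.23 and 0.41 for H3F3A. The 2 genes encode the same protein, and shScramble cells contributed only 2 pairs. The share of all genes with these opposite signs is not given here, so the pattern has no background. Whether it is unusual among all genes was not tested. No library stood apart by Dixon's criterion in any of the 20 groups of 6 libraries examined, where chance alone gives about 1.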

How the results depend on the processing

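The replicates number 2 per group, and replicate values that move together, such as those of H2AFX, widen the errors. In shScramble cells all 4 libraries of the cisplatin comparison mattered: leaving out each in turn gave 1 to 3 genes called higher, against 4, and 0 to 1 called lower, against 1. Median-of-ratios scaling and no filter on low values each left 0 called lower there (H2AFV adjusted p = 0.0519 and 0.0562), and without the filter SLBP was not called (adjusted p = 0.0648). In shPRMT1 cells the count lower was 1 with the replicate block, against 0, and 0 to 1 without 1 library. For knockdown in untreated cells the count lower was 1 rather than 2 with a fit of only the libraries compared (H3F3B adjusted p = 0.105) and without shRNA #3 (0.0771), and 1 to 2 without 1 library. For knockdown under cisplatin the count higher was 1 rather than 0 with the replicate block and without shRNA #1 (H3F3A adjusted p = 0.0232), the count lower was 0 rather than 1 with a fit of only the libraries compared (H2AFV adjusted p = 0.0518) and without shRNA #3, and both counts ran from 0 to 1 without 1 library. For the difference between responses the replicate block gave 2 higher, against 0. H2AFZ in untreated knockdown cells was called without shRNA #1 (adjusted p = 0.0259) or #5 (0.0371). No called difference changed sign. H2AFX, called in none of the 5 averaged comparisons, changed sign without 1 library: from -0.81 to 0.35 for cisplatin in shScramble, -0.05 to 0.39 in shPRMT1, -0.89 to 0.27 for knockdown untreated, -0.30 to 0.49 under cisplatin and -0.18 to 0.98 for the difference. Differences of other genes that no setting called are given in the report only. The rise of LSM11 in shScramble cells, those of SLBP, LSM11, CASP8AP2, NPAT and H2AFZ in shPRMT1 cells, and the fall of H2AFV in untreated knockdown cells kept their call under every alternative run. The 10 genes held at least 227 reads in each library, and what depth contributed to their errors was not tested. The causes were not tested.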
